A study of Mus musculus with 23 samples.

Results

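The comparison described here asks whether the effect of RAS deletion in FA medium depends on the transcription factor ERF. It uses 11 of the 23 RNA sequencing libraries of the series, all from mouse embryonic stem cells of the Raslox/lox background, in which Hras and Nras are already disrupted (H-Ras-/-;N-Ras-/-) and Ubiq-CreERT2 supplies a Cre recombinase that 4-hydroxytamoxifen (OHT) switches on. The FA libraries come from cells moved for 48 hours onto fibronectin in N2B27 medium with FGF2, Activin A and knockout serum replacement, conditions used to turn embryonic stem cells into epiblast-like cells. WT_D (ERF wild type, no OHT) has 2 libraries. RASKO_D (ERF wild type, 6 days of OHT), ERFKO_D (ERF knockout, no OHT) and RASERFKO_D (ERF knockout, 6 days of OHT) have 3 each. The other 12 libraries hold the same 4 genotypes in 2iL, a medium with inhibitors of MEK and GSK3 plus LIF that keeps cells naive, and served to share the estimate of spread and for 1 comparison between media. The groups also share the disrupted Hras and Nras genes, so neither group called WT has a full set of Ras genes. Every RAS-deleted library had received OHT, and effects of OHT itself cannot be told apart from those of RAS loss. How many ERF knockout clones were used is not given in the sources used here, nor whether libraries of a group came from separate cultures, so the p-values measure the spread between these libraries, which may be technical.

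RAS proteins relay signals from growth factor receptors, among them FGF receptors, through RAF and MEK to the kinase ERK. ERF is a repressor of the ETS family that binds ETS sites near growth-factor responsive genes, and ERK phosphorylates it and drives it out of the nucleus. In embryonic stem cells ERK activity drives the exit from naive pluripotency and induces its own feedback inhibitors, such as the Sprouty and Spred proteins.

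The interaction of a gene is its RAS effect with ERF knocked out (RASERFKO_D against ERFKO_D) minus its RAS effect with ERF present (RASKO_D against WT_D), in log2 units. A positive value means that the level after RAS deletion, relative to the RAS-present cells of the same line, was higher without ERF than with it, and a negative value that it was lower. Of 20372 genes tested, 2794 (13.7%) were called at an edgeR adjusted p under 0.05 and an interaction of at least 1 on the log2 scale. Of these, 1282 were positive (6.29% of genes tested) and 1512 negative (7.42%), while the median interaction of all tested genes was 0.02. Among the called genes, 1193 had an interaction of at least 4-fold and 197 of at least 16-fold. With each of the 11 FA libraries left out in turn, 1922 of the called genes (68.8%) kept their sign and an adjusted p under 0.05 in every fit. The called gene nearest to the fold minimum had an absolute interaction of 1.0007, and the nearest gene outside it with an adjusted p under 0.05 had 0.999.

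The FA libraries held 21974527 to 29082007 counts each. Erf itself was still counted in the knockout libraries, at levels that overlapped or lay little below those of the ERF wild-type libraries, and so did not check that label: it lay at 49.3 to 67.9 CPM (counts scaled to a common library size) across RASERFKO_D, 50.7 to 64.8 across ERFKO_D, 66.8 to 74.4 across RASKO_D and at 69.8 and 56.5 in WT_D, with an interaction of -0.07. The position and size of the ERF mutation are not given in the sources used here. Nras and Hras, disrupted in all groups, had interactions of -0.11 and 0.63, neither of them called. Genes of chromosome 8 lay above the group mean by a median of 0.22 on the log2 scale in replicate 1 of RASKO_D. In WT_D they lay 0.14 above it in replicate 1 and, with 2 libraries, by construction as far below it in replicate 2, so which of the pair stands apart cannot be said. Chromosome 8 genes had a median interaction of 0.20, with 81 called positive and 43 negative (12.1%, near the 13.7% of all genes), against 0.09, 60 and 42 with replicate 1 of both groups left out. Of all replicate pairs, replicates 1 and 3 of RASKO_D differed most, with a chi-square per degree of freedom of 44.9, so values from that group are given by library.

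The promoters of 6 genes whose RAS effect depended on ERF are shown because they stand for both directions. Il17rd, Spry2 and Spred1 are feedback inhibitors of the FGF and RAS pathway with a positive interaction. Klf4, Tfcp2l1 and Zfp42 belong to naive pluripotency and had a negative one. Each line gives the 250 bases before the annotated start, 5′ to 3′ on the gene's strand, from the RefSeq promoter table of build GRCm38.p6, with the ETS-type cores CCGGAA and CAGGAA of either strand in capitals.
Il17rd (chr14:27038751-27039000, plus strand): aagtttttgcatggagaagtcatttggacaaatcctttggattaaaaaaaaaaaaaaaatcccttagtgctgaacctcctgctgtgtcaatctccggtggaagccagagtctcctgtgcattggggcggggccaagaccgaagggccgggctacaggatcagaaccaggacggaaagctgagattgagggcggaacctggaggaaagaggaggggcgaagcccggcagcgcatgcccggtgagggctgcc
Spry2 (chr14:105896820-105897069, minus strand): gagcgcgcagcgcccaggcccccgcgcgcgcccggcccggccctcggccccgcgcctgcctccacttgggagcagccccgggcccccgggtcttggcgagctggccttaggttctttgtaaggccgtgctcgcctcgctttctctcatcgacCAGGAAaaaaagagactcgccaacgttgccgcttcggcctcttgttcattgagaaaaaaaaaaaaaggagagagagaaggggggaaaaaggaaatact
Spred1 (chr2:117120821-117121070, plus strand): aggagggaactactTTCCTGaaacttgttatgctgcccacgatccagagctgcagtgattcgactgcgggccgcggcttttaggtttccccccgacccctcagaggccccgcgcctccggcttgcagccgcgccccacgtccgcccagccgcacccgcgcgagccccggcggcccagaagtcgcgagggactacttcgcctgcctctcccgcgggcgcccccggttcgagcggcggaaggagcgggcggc
Klf4 (chr4:55532476-55532725, minus strand): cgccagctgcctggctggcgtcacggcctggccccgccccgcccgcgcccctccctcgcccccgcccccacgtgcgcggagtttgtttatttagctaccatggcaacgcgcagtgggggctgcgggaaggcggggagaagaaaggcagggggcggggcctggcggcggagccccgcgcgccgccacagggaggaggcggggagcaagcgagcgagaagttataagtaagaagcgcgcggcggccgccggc
Tfcp2l1 (chr1:118627695-118627944, plus strand): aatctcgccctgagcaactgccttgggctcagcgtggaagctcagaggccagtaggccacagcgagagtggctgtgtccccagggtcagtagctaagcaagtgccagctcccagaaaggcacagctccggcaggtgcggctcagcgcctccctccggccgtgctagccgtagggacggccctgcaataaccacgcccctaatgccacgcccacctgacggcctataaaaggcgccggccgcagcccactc
Zfp42 (chr8:43307010-43307259, minus strand): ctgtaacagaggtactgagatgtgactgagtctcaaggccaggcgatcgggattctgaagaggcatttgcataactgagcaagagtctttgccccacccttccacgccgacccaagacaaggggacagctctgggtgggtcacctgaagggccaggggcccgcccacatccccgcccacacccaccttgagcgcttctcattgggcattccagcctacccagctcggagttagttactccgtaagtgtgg
The Spry2 and Spred1 windows each held 1 CAGGAA core, and the other windows shown held neither core. Over all 16250 promoter windows of tested genes (300 bases, 250 before to 50 after the start), 23.7% held CCGGAA and 26.9% held CAGGAA on either strand. For genes called positive the shares were 12.8% and 27% of 1098 windows. For genes called negative they were 13.5% and 28.6% of 1285 windows. Windows with CCGGAA were thus about as frequent in both directions and less frequent than over all tested genes, while CAGGAA was close to the background in both. These shares are a description of letters in a short window and say nothing of binding.

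Most of the interaction came from genes that responded to RAS deletion with ERF present and not without it. RAS effects themselves were called for 17.3% of tested genes with ERF wild type and for 6.88% with ERF knockout. Of the 2794 interaction genes, 1688 (60.4%) had a called RAS effect with ERF wild type only, and for 1597 of these the effect with ERF knockout was under 2-fold. The 758 positive genes of that class had a median RAS effect of -1.89 with ERF and -0.01 without it. The 930 negative genes had medians of 1.9 and -0.14. A further 118 genes (4.22%) changed in the same direction in both lines, and 114 of them changed less without ERF. For 123 genes (4.40%) the RAS effect was called in both lines with opposite signs. For 299 genes (10.7%) it was called with ERF knockout only, and for 566 (20.3%) in neither line alone. By level rather than by effect, no group stood apart for 1936 of the 2794 called genes (69.3%). RASKO_D was the group that most often did so, for 794 of them (28.4%). It lay at least 2-fold above each of the other 3 groups, which lay within 2-fold of one another, for 458 called genes, and below them for 336. Among called genes RASERFKO_D stood apart in this way for 27 upward and 10 downward. Over all tested genes RASKO_D did so for 549 and 365, and each other group for at most 39 in either direction.

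**Figure D1:**
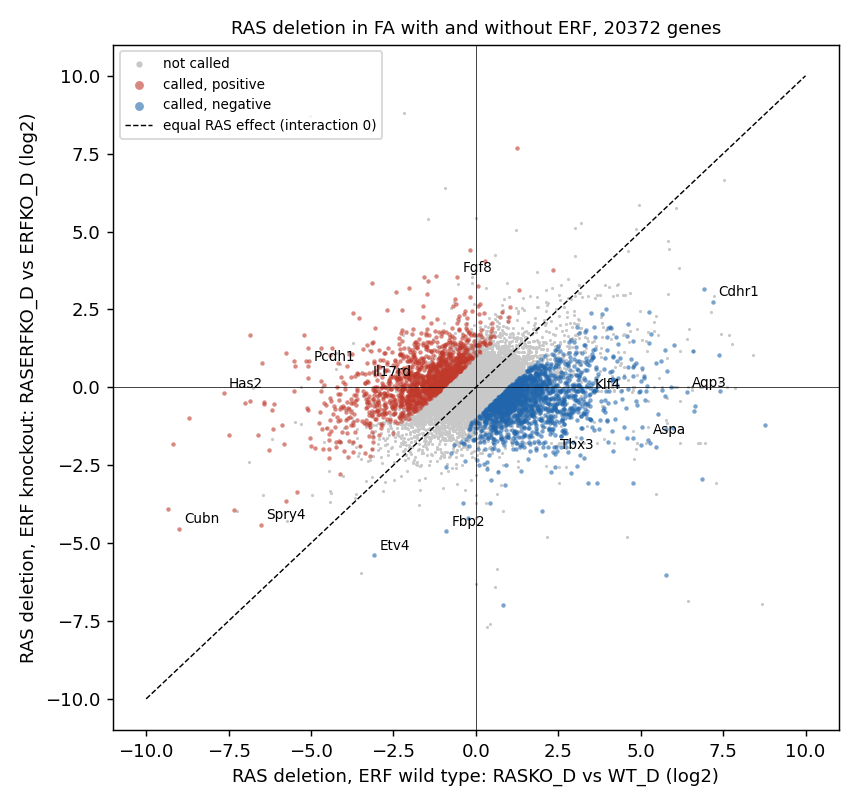
Log2 effect of RAS deletion in FA with ERF wild type (horizontal) and with ERF knockout (vertical), 1 point per tested gene. Red and blue points are the 1282 positive and 1512 negative interaction calls, grey points are not called, and the dashed line marks equal effects; most coloured points spread along the horizontal axis and stay near 0 on the vertical one.

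Feedback inhibitors of the ERK pathway gave some of the clearest interactions. Il17rd, a membrane protein that dampens FGF receptor signaling, stood at 175 and 171 CPM in WT_D, at 21.1, 15.7 and 15.8 in RASKO_D, at 142, 120 and 138 in ERFKO_D and at 149, 162 and 146 in RASERFKO_D. RASKO_D was low and the other 3 groups lay together, several-fold above it. The interaction of Il17rd was 3.50 ± 0.14 (SE, edgeR adjusted p 1.34e-13), with RAS effects of -3.3 with ERF and 0.19 without. Spry2, a Sprouty inhibitor of receptor signaling to RAS, read 64.9 and 60.5 CPM in WT_D, 2.94, 3.44 and 5.14 in RASKO_D, 41.4, 34.7 and 42.0 in ERFKO_D and 25.1, 24 and 26.1 in RASERFKO_D. The RAS effects were -4.01 with ERF and -0.65 without it, the latter under 2-fold, and the interaction was 3.36 ± 0.22 (edgeR adjusted p 7.24e-10). Spred1, which helps to shut off RAS at the membrane, followed the same order with 95.4 and 83.5, then 11.3, 12.4 and 11.3, then 82.8, 75.4 and 91.9, and last 44.0, 47.7 and 46.0 CPM, for an interaction of 2.08 ± 0.13 (edgeR adjusted p 1.22e-10).

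Spry4 and Etv4 kept a strong dependence on RAS in both lines. Spry4, another Sprouty gene, stood at 38.3 and 25.6 CPM in WT_D and at 0.0876, 0.527 and 0.395 in RASKO_D, against 14.8, 9.99 and 15.4 in ERFKO_D and 0.644, 0.694 and 0.539 in RASERFKO_D. Both RAS-deleted groups were far below their RAS-present groups, so the positive interaction of 2.11 ± 0.43 (edgeR adjusted p 0.000737) reflects RAS effects of -6.52 with ERF and -4.41 without. Etv4, an ETS activator that is a classical FGF and ERK target, went the other way. It read 39.6 and 35.5 CPM in WT_D, 2.59, 4.82 and 5.64 in RASKO_D, 24.2, 21.7 and 26 in ERFKO_D and 0.515, 0.408 and 0.787 in RASERFKO_D, the lowest of the 4 groups. Its interaction was -2.30 ± 0.37 (edgeR adjusted p 8.01e-05). Over the 23 tested genes of the ERK response and feedback list, 4 were called positive and 2 negative (26.1%, beside 13.7% of all genes), and the median interaction was 0.21. That median was -0.12 without WT_D replicate 1. The list was therefore not moved as a whole: Dusp6, an ERK phosphatase, had an uncalled interaction of 0.67, Egr1, an immediate early transcription factor, -0.51, and Etv5, the close relative of Etv4, -0.23.

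ETS factors, the family to which ERF belongs, numbered 21 tested members, of which 2 were called positive and 5 negative (33.3%), with a median of -0.24. Etv4, described above, was among the negative ones. Elf3, an epithelial ETS activator, read 12.8 and 12.5 CPM in WT_D, 108, 69.1 and 71.2 in RASKO_D, 8.44, 7.99 and 8.05 in ERFKO_D and 10.6, 7.88 and 8.54 in RASERFKO_D, an interaction of -2.56 ± 0.21 (edgeR adjusted p 1.24e-08). Spic, an ETS factor best known from macrophages, was low throughout but reached 7.27, 3.28 and 2.66 CPM in RASKO_D against at most 0.757 in any other library, an interaction of -4.50 ± 0.80. Elf4 had -1.30 ± 0.25. Fli1, an ETS activator of blood and endothelial cells, was positive at 3.17 ± 0.74: it lay at 1.58, 2.00 and 1.24 CPM in RASERFKO_D and at no more than 0.647 in the other libraries. Ets1 had 1.31 ± 0.28, and 0.92 without replicate 1 of WT_D and RASKO_D, below the fold minimum. Of 28 RAS and MAP kinase components, 1 was called positive and 2 negative, and their median was -0.01. That is 10.7%, near the 13.7% of all genes. Without RASKO_D replicate 3, 5 of these were called. The negative ones were Mras, a RAS-like GTPase that promotes RAF activation, at -3.37 ± 0.43, and Ralb, a GTPase downstream of RAS exchange factors, at -1.23 ± 0.20.

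Naive pluripotency genes had mostly negative interactions. Of 18 tested, 14 were called negative and 1 positive (83.3%, beside 13.7% of all genes), and the median was -2.36, beside 0.02 over all genes. Klf4, a Krüppel-like factor of the naive network, lay at 3.56 and 3.36 CPM in WT_D, 46.4, 35.1 and 32.6 in RASKO_D, 5.50, 5.60 and 4.90 in ERFKO_D and 4.89, 3.27 and 5.51 in RASERFKO_D. Only RASKO_D was high, and the other 3 groups were within a few CPM of one another. The interaction of Klf4 was -3.67 ± 0.23 (edgeR adjusted p 2.91e-10). Prdm14, a repressor that shields the naive state from FGF signaling, was also highest in RASKO_D, with 35.8, 24.8 and 22.1 CPM against at most 1.53 CPM in any other library. Unlike Klf4 it had a called RAS effect in both lines, 5.26 with ERF and 1.42 without it, for an interaction of -3.84 ± 0.58 (edgeR adjusted p 3.82e-05). Zfp42 (Rex1), a widely used naive marker, had -3.06 ± 0.28, with 442, 348 and 307 CPM in RASKO_D and 18.2 to 39.8 CPM elsewhere.

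Tbx3, a T-box factor of the naive network, differed from these in that its RAS effect changed sign. It read 26 and 18.7 CPM in WT_D, 180, 95.5 and 78.3 in RASKO_D, 23.9, 37.2 and 21.4 in ERFKO_D and 7.27, 5.84 and 5.30 in RASERFKO_D. With ERF it rose after RAS deletion by 2.39 and without ERF it fell by 2.15 on the log2 scale, an interaction of -4.55 ± 0.41 (edgeR adjusted p 4.58e-07). Dppa3 (Stella), a maternal and germ cell factor also high in naive cells, had -3.91 ± 0.38 and RAS effects of 2.39 and -1.52. The single naive list member with a positive interaction was Gbx2, a homeobox gene: it lay at 32.3 and 28.5 CPM in WT_D, 3.59, 6.2 and 8.95 in RASKO_D, 15.8, 11.6 and 15.2 in ERFKO_D and 14.1, 12.1 and 11.4 in RASERFKO_D, an interaction of 2.09 ± 0.33 (edgeR adjusted p 6.68e-05). The naive list holds no other exception among its called members, and its 3 uncalled members were Klf5, Tdh and Tet2, all below 0.

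Formative and primed epiblast genes ran opposite to the naive ones. Of 19 tested, 10 were called positive and 0 negative (52.6%, beside 13.7% of all genes), with a median of 1.27. Pou3f1 (Oct6), a POU factor of the formative epiblast, read 59.1 and 85.4 CPM in WT_D, 4.38, 9.44 and 19.2 in RASKO_D, 51.8, 30.4 and 37.9 in ERFKO_D and 57.3, 63.8 and 56.1 in RASERFKO_D. The RASKO_D libraries lay below all others, and the interaction was 3.26 ± 0.49 (edgeR adjusted p 9.8e-05). Fgf5, an FGF ligand that marks the postimplantation epiblast, read 1.71, 7.13 and 20.6 CPM in RASKO_D, a wide spread that reached into the range of ERFKO_D (21.2, 12.5 and 16.8), and 42.6, 45.2 and 35.5 in RASERFKO_D beside 30.7 and 41.0 in WT_D. Its interaction was 3.14 ± 0.69 (edgeR adjusted p 0.00273), and 3.48 with an edgeR adjusted p of 0.0617, no longer called, with the replicate number as a block in the FA libraries alone. Lef1, a nuclear partner of β-catenin, had 2.84 ± 0.62, Dnmt3b, a de novo DNA methyltransferase, 2.09 ± 0.41, and Sox3 1.61 ± 0.24. Otx2, a homeobox factor central to the exit from the naive state, was not called at -0.27. For all 5 positive genes the library of RASKO_D furthest from WT_D was replicate 1, and replicate 3 was the nearest. General pluripotency genes had no common direction, with 2 of 10 positive, 2 negative (40%, beside 13.7% of all genes) and a median of 0.05. Sox2 was negative at -1.23 ± 0.17, Lin28a positive at 1.87 ± 0.44, and Pou5f1 (Oct4) not called at -0.47.

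**Figure D2:**
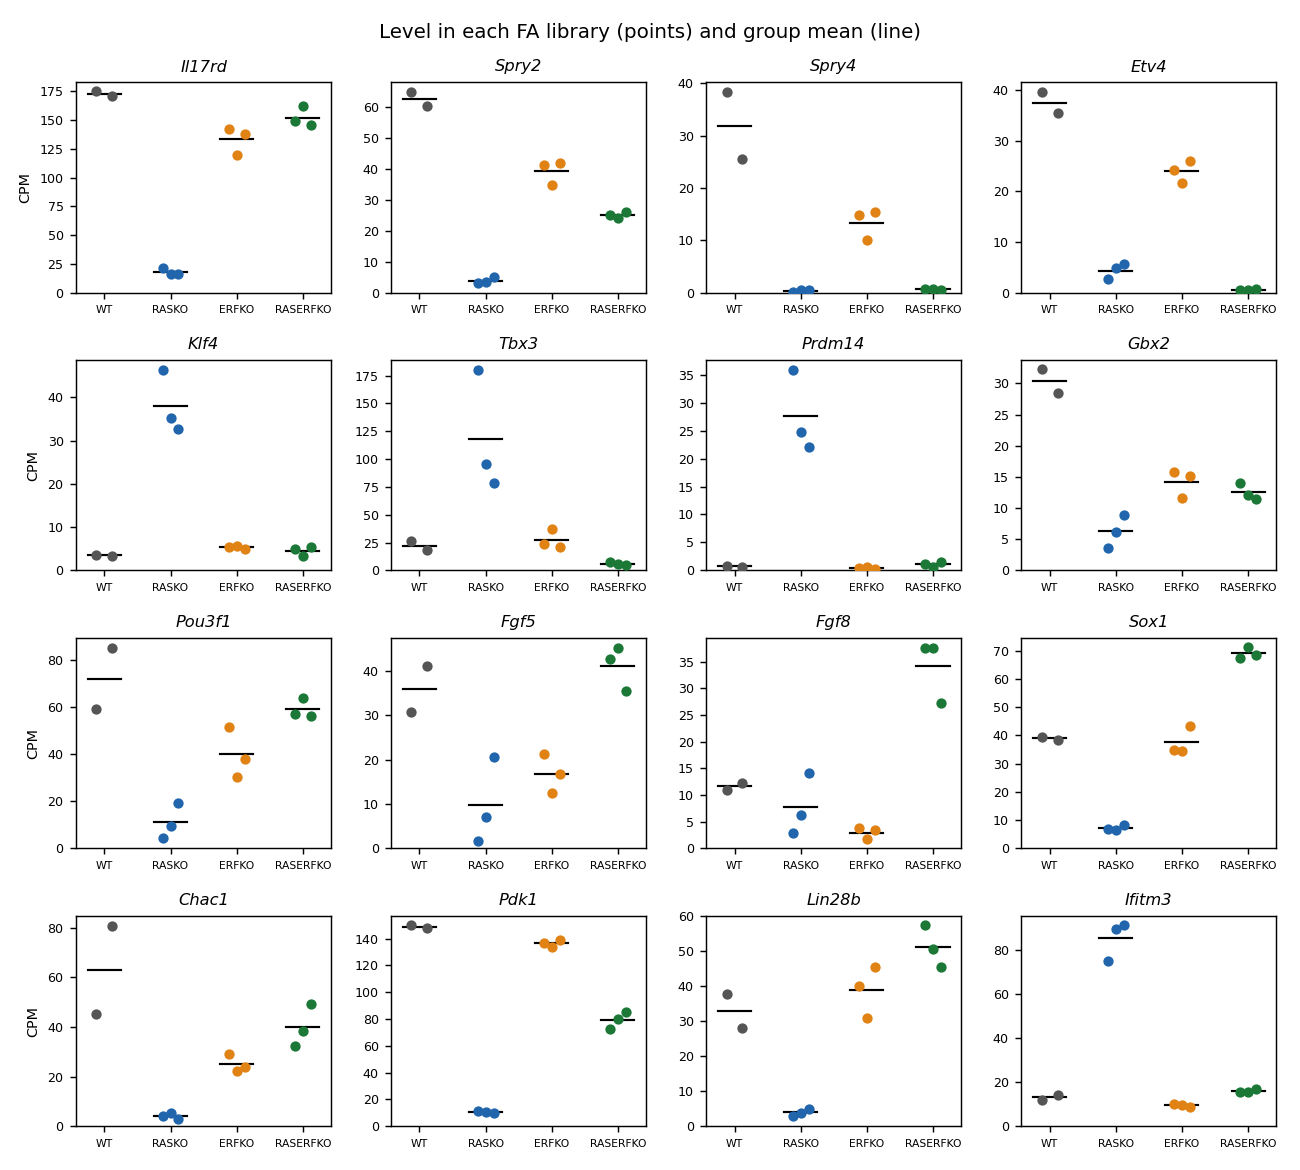
CPM of 16 genes in each FA library (points) with the group mean (line). RASKO_D is highest for Klf4, Tbx3, Prdm14 and Ifitm3 and lowest for Il17rd, Sox1, Chac1 and Lin28b, RASERFKO_D is highest for Fgf8 and Sox1 and lowest for Etv4 and Tbx3, and the 3 RASKO_D points spread widely for Fgf5, Fgf8 and Pou3f1.

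The labelled state was compared with marker lists, and the naive and epiblast-like lists moved in opposite directions. Pluripotency markers of any stage (Pou5f1, Sox2, Lin28a, Sall4, Utf1 and Tdgf1) summed to 1372 to 1639 CPM in every FA library. The 6 naive markers summed to 1078 to 1729 CPM in RASKO_D, 200 to 220 in WT_D, 190 to 273 in ERFKO_D and 262 to 276 in RASERFKO_D, and all 6 were called negative. The 6 epiblast-like markers summed to 121 to 349 CPM in RASKO_D, 677 to 722 in WT_D, 376 to 454 in ERFKO_D and 545 to 567 in RASERFKO_D, and 5 of 6 were called positive. Over all genes tested, 7.42% were called negative and 6.29% positive. The RASKO_D cells labelled as FA thus carried naive markers at several times the level of the other 3 groups. In bulk RNA, fewer cells of a type and less RNA per cell cannot be told apart.

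**Figure D3:**
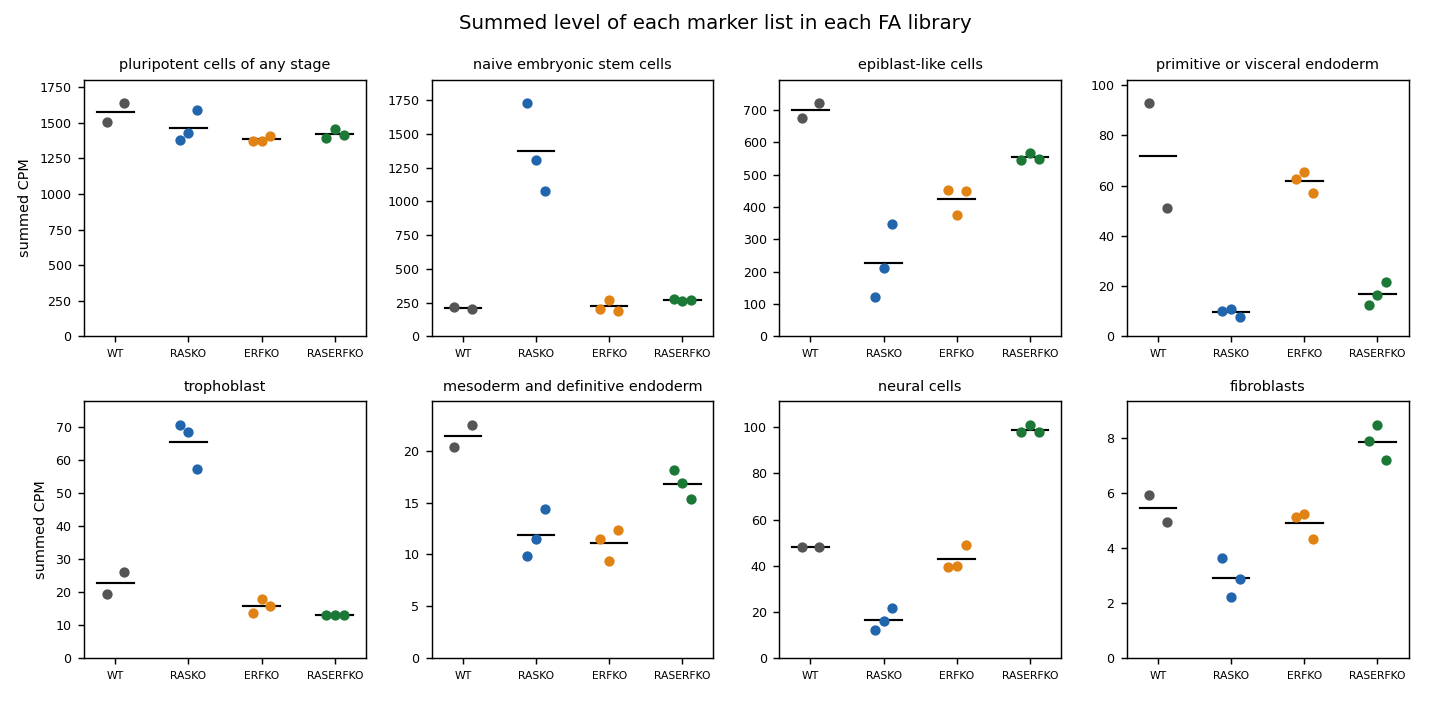
Summed CPM of 8 marker lists in each FA library (points) and group mean (line), each panel starting at 0. The naive list is high in RASKO_D (6 of 6 called negative, beside 7.42% of all genes tested), and the epiblast-like list is low there. The trophoblast sum is also high in RASKO_D, mostly through Tfap2c (2 markers called positive and 2 negative). The neural list is highest in RASERFKO_D at 97.8 to 101 CPM, and the endoderm list is low in both RAS-deleted groups.

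Ligands, receptors and targets of other signaling pathways were described by list. Of 17 FGF ligands, receptors and cofactors, 5 were called positive and 0 negative (29.4%, beside 13.7% of all genes), with a median of 0.72. Without RASKO_D replicate 3, 9 were called. Fgf8, a ligand of gastrulation, belonged to the genes whose RAS effect was called only without ERF: it stood at 11 and 12.2 CPM in WT_D, 2.94, 6.2 and 14.2 in RASKO_D, 3.75, 1.69 and 3.35 in ERFKO_D and 37.6, 37.5 and 27.3 in RASERFKO_D. RASERFKO_D was above every other library, and the interaction was 4.10 ± 0.55 (edgeR adjusted p 2.06e-05). The median was 0.25 without replicate 1 of WT_D and RASKO_D. Fgf10, a ligand of limb and lung outgrowth, had 2.59 ± 0.66, and 1.74 with an edgeR adjusted p of 0.0744 when effective gene lengths were added as offsets. Among 22 Wnt pathway genes, 7 were positive and 2 negative (40.9%), with a median of 0.93, or 0.49 without replicate 1 of WT_D and RASKO_D. Wnt8a, a ligand of the primitive streak, had 4.04 ± 0.69, with 22.3 and 14 CPM in WT_D, 0.219, 0.77 and 3.16 in RASKO_D, 7.87, 5.99 and 10.6 in ERFKO_D and 12.7, 11.4 and 7.75 in RASERFKO_D. Notum, a secreted enzyme that inactivates Wnt, had -2.12 ± 0.41 and was highest in RASKO_D at 35.5, 30.8 and 37.7 CPM.

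Of 12 genes of the LIF, JAK and STAT3 list, 3 were negative and 1 positive (33.3%, beside 13.7% of all genes), with a median of -0.57. Lif itself had -1.55 ± 0.24, its receptor Lifr -1.16 ± 0.19, and Bcl3, a nuclear cofactor of NF-κB, -2.61 ± 0.29. Lif lay at 11.2, 11.1 and 11 CPM in RASKO_D and between 5.02 and 8.19 in the other libraries. In the BMP list of 19, 2 were positive and 2 negative (21.1%), the latter being Id4, a dominant negative helix-loop-helix factor (-2.61 ± 0.40), and Msx2, a homeobox target of BMP (-3.11 ± 0.49). In the Nodal and Activin list of 21, 3 were positive and 2 negative, 23.8% in all, beside 13.7% of all tested genes. Without replicate 1 of WT_D and RASKO_D 3 were called, a share near that background. Pcsk6, a protease that matures Nodal, had -1.63 ± 0.15, while Lefty1, a Nodal inhibitor, missed the fold minimum at 0.89 ± 0.19.

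Lineage genes did not share 1 direction. Of 18 primitive and visceral endoderm genes, 6 were called positive and 0 negative, with a median of 1.03. That is 33.3%, beside 13.7% of all genes, but only 2 of the 18 were called without WT_D replicate 1, a share no higher than that background. Cubn, the cubilin receptor of visceral endoderm and kidney, read 340 and 157 CPM in WT_D, 0.526, 0.486 and 0.431 in RASKO_D, 95.0, 76.6 and 133 in ERFKO_D and 3.77, 4.00 and 5.43 in RASERFKO_D. It was strongly lower after RAS deletion in both lines and less so without ERF, an interaction of 4.47 ± 0.68 (edgeR adjusted p 0.000124). The 7 endoderm markers (Gata4, Gata6, Sox17, Sox7, Pdgfra, Amn and Afp) summed to 51.1 to 92.9 CPM in WT_D, 7.73 to 11 in RASKO_D, 57.1 to 65.5 in ERFKO_D and 12.5 to 21.6 in RASERFKO_D, and 2 of them were called positive. Afp was at or under 3 counts per library in all groups but ERFKO_D. The part of endoderm cells in the result for Cubn was not tested.

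Mesoderm and definitive endoderm genes were positive for 5 of 14 and negative for 0 (35.7%, beside 13.7% of all genes), with a median of 0.42, and 3 were called without WT_D replicate 1. Eomes, a T-box factor of the primitive streak, had 1.81 ± 0.26, with 14.4 and 18.2 CPM in WT_D, 6.09, 7.62 and 11.1 in RASKO_D, 8.11, 6.65 and 8.57 in ERFKO_D and 15.4, 13.9 and 12.6 in RASERFKO_D. Its RAS effect was called in neither line alone. Lhx1, a LIM factor of the organizer, fell to 3 counts or fewer in every RASKO_D library, from 11.7 and 7.15 CPM in WT_D. It was also low in RASERFKO_D, at 0.161, 0.286 and 0.166 CPM, against 2.98, 2.82 and 3.63 in ERFKO_D, so its interaction is a lower bound of 2.34. With effective lengths as offsets it had an edgeR adjusted p of 0.051. The mesoderm and definitive endoderm markers summed to 9.34 to 22.5 CPM over all FA libraries, and Mesp1 was at or under 3 counts per library in all groups but ERFKO_D.

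Neural genes had no common direction. Of 11 tested, 4 were positive and 1, Sox21 at -3.48, negative (45.5%, beside 13.7% of all genes), 5 lay above 0 and 6 below, and the median was -0.08, or -0.62 with no filter on low counts. Sox1, the earliest neural plate marker, read 39.5 and 38.4 CPM in WT_D, 6.66, 6.48 and 8.38 in RASKO_D, 34.7, 34.6 and 43.3 in ERFKO_D and 67.4, 71.2 and 68.4 in RASERFKO_D, so that RASKO_D was lowest and RASERFKO_D highest, with the RAS-present groups between them. Its interaction was 3.31 ± 0.21 (edgeR adjusted p 3.54e-10). Pax6, a paired-box neural regulator, was raised by RAS deletion without ERF only: it lay at 30.4, 30 and 28.8 CPM in RASERFKO_D and between 4.57 and 13 elsewhere, an interaction of 2.54 ± 0.37. Sox11, a SoxC factor of developing neurons, had 3.63 ± 0.21. The neural markers, Sox1 and Pax6 among them, summed to 97.8 to 101 CPM in RASERFKO_D, 48.0 to 48.2 in WT_D, 39.6 to 49.1 in ERFKO_D and 12.1 to 21.5 in RASKO_D, while Neurog2 and Hes5 stayed at or under 3 counts per library in every group. The part of neural cells in these results was not tested.

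Of 17 trophoblast genes, 7 were called negative and 3 positive (58.8%, beside 13.7% of all genes), with a median of -1.04. Without replicates 1 and 3 of RASKO_D the median was -0.53, and without replicate 1 of WT_D and RASKO_D 6 were called in all. Tfap2c, an AP-2 factor shared by trophoblast, germ cells and naive cells, had -2.59 ± 0.24 with 51.1, 48.3 and 36.9 CPM in RASKO_D against 6.15 to 14 elsewhere. Tead4, a TEAD factor of the trophectoderm, had -2.31 ± 0.21, and Wnt7b -3.25 ± 0.57. Hand1, a helix-loop-helix factor of trophoblast and extraembryonic mesoderm, went the other way at 3.94 ± 0.56. Of the 6 trophoblast markers, 2 were called positive and 2 negative, and they summed to 57.3 to 70.7 CPM in RASKO_D, 19.5 to 26.1 in WT_D, 13.6 to 17.8 in ERFKO_D and 13.1 to 13.2 in RASERFKO_D. Most of the RASKO_D sum was Tfap2c, which is not specific to trophoblast. No group had any of the 6 at or under 3 counts in all its libraries, and the part of trophoblast cells was not tested. Fibroblast markers summed to 2.23 to 3.64 CPM in RASKO_D, 4.97 to 5.94 in WT_D, 4.34 to 5.26 in ERFKO_D and 7.21 to 8.49 in RASERFKO_D, and 3 of the 4 tested were called positive, with Col3a1, Postn and Lum at or under 3 counts per library in every group.

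Of 37 Hox genes tested, 7 were positive and 6 negative (35.1%, beside 13.7% of all genes), and the median was -0.07. That the called genes differed by cluster was seen in the data and was not tested. The positive calls were all of the Hoxa and Hoxb clusters, among them Hoxb1 (5.38 ± 0.55), Hoxb3 (3.58 ± 0.53) and Hoxb2 (3.08 ± 0.57), and the negative calls all of the Hoxc and Hoxd clusters. Hoxb1, a hindbrain segment gene that responds to retinoic acid, lay at 10.6 and 10.1 CPM in WT_D, 0, 0.162 and 0.467 in RASKO_D, 5.38, 5.04 and 5.10 in ERFKO_D and 5.09, 5.10 and 4.02 in RASERFKO_D. Hoxd9 is an example of the opposite direction, at 3.15, 3.08 and 1.69 CPM in RASKO_D against 0.216 to 1.13 elsewhere, an interaction of -3.42 ± 0.62. Of 24 genes of polarity, lumen and adhesion, 6 were positive and 2 negative (33.3%), with a median of 0.29. Prom1, a protein of apical membrane protrusions, had 3.13 ± 0.24. Epcam, a cell adhesion protein, read 130 and 188 CPM in WT_D, 36.4, 31.0 and 28.8 in RASKO_D, 163, 162 and 168 in ERFKO_D and 101, 105 and 121 in RASERFKO_D, an interaction of 1.72 ± 0.26. Esrp1, an epithelial splicing regulator, had 1.71 ± 0.48 and the claudin gene Cldn6 1.60 ± 0.29.

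Genes of the integrated stress response, the ATF4 program that answers amino acid shortage and unfolded proteins, leaned positive together. All 19 tested lay above 0, 13 were called positive and 0 negative (68.4%, beside 13.7% of all genes), and the median was 1.30. Chac1, a glutathione-degrading ATF4 target, read 45.2 and 80.9 CPM in WT_D, 4.21, 5.31 and 2.98 in RASKO_D, 29.3, 22.1 and 23.8 in ERFKO_D and 32.5, 38.4 and 49.2 in RASERFKO_D, an interaction of 4.60 ± 0.38 (edgeR adjusted p 9.85e-08). Slc7a11, the cystine importer, had 3.19 ± 0.38, Trib3, a pseudokinase induced by ATF4, 3.15 ± 0.43, and the lipoprotein receptor gene Vldlr 2.25 ± 0.34. WT_D replicate 2 was the higher of the 2 WT_D libraries for all 4 genes. Without it the median was 0.69 and 8 genes were called (8 also with the replicate number as a block in the FA libraries alone), and without WT_D replicate 1 the median was 1.74. Of 21 p53 targets, 6 were negative and 0 positive (28.6%, beside 13.7% of all genes), with a median of -0.74. Without WT_D replicate 1, 2 were called, no more than the background share. Plk2, a polo-like kinase induced by p53, had -1.87 ± 0.14 and was lowest in RASERFKO_D, at 23.1, 22.5 and 24.7 CPM, and in WT_D, at 24.5 and 32.9. Fas, a death receptor, had -2.36 ± 0.56 at levels of at most 1.28 CPM.

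The lists of glycolysis and of lipid synthesis had medians above 0. Of 24 glycolysis genes, 6 were positive and 2 negative (33.3%, beside 13.7% of all genes), with a median of 0.56, and 5 were called with the replicate number as a block in the FA libraries alone. Pdk1, a mitochondrial kinase that inhibits pyruvate dehydrogenase, was the largest at 3.00 ± 0.18 (edgeR adjusted p 1.22e-10): it read 150 and 148 CPM in WT_D, 11.4, 10.8 and 10.2 in RASKO_D, 137, 134 and 139 in ERFKO_D and 72.7, 80.2 and 85.1 in RASERFKO_D. No library of one group lay within the range of another, and both RAS-deleted groups were below the RAS-present ones. The lactate dehydrogenase subunits differed in sign, with Ldha at 1.76 ± 0.23 and Ldhb at -1.39 ± 0.18. Of 26 genes of cholesterol and fatty acid synthesis, 5 were positive and 0 negative (19.2%, beside 13.7% of all genes), 24 lay above 0, and the median was 0.82. Without WT_D replicate 2, 11 were called, and 8 without replicates 1 and 3 of RASKO_D, while the median was 0.55 without WT_D replicate 1. Lss, lanosterol synthase, had 1.53 ± 0.17, Dhcr7 1.40 ± 0.13 and Scd2, a fatty acid desaturase, 1.28 ± 0.12. In contrast, 4 of 94 oxidative phosphorylation genes (4.26%) and 1 of 80 cytoplasmic ribosomal protein genes (1.25%) were called, below the 13.7% of all genes. Without WT_D replicate 1, 2 oxidative phosphorylation genes were called. The ribosomal exception was Rpl10l, a retrocopy of Rpl10 known from testis, at -1.52 ± 0.17. Of 30 cell cycle genes, 2 were called (6.67%), or 4 without WT_D replicate 2.

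**Figure D4:**
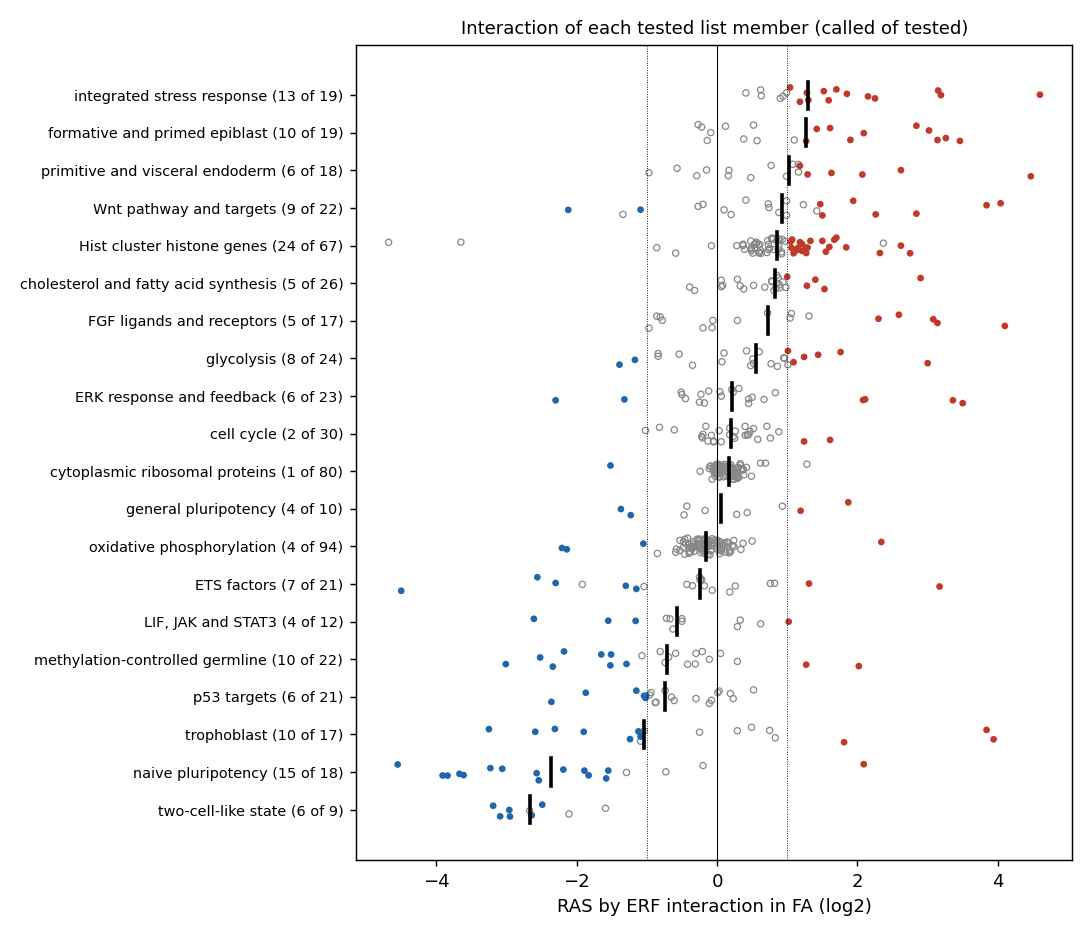
Interaction in FA (log2) of every tested member of 20 gene lists, ordered by median (black bar). Filled red and blue points are called positive and negative, open points are not called, dotted lines mark the fold minimum, and the counts beside each name are members called of members tested; the naive list lies left of 0 except Gbx2, and the integrated stress response list lies right of 0 throughout.

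Other classes added contrasts of their own. The Lin28 pair of let-7 inhibitors was positive, with Lin28b at 37.7 and 28.1 CPM in WT_D, 3.02, 3.81 and 4.92 in RASKO_D, 40.1, 31.0 and 45.4 in ERFKO_D and 57.3, 50.7 and 45.5 in RASERFKO_D, an interaction of 3.46 ± 0.23 (edgeR adjusted p 4.64e-10). Of 26 imprinted genes, 10 were positive and 2 negative (46.2%, beside 13.7% of all genes). Peg10, a placental gene derived from a retrotransposon, read 1714 and 1531 CPM in WT_D, 110, 115 and 121 in RASKO_D, 1013, 880 and 1188 in ERFKO_D and 538, 542 and 512 in RASERFKO_D, an interaction of 2.86 ± 0.23. Phlda2, a placental growth restrictor, had 3.30 ± 0.31 and Dlk1, a Notch ligand relative, 2.22 ± 0.27, while Plagl1, a zinc finger regulator, had -2.60 ± 0.56. Among 22 germline genes under methylation control, 8 were negative and 2 positive (45.5%), led by Dazl (-3.01 ± 0.33), an RNA-binding protein of germ cells, and with Tdrd1 (2.02 ± 0.39) of the piRNA pathway on the other side. Their median of -0.71 was -0.19 without WT_D replicate 1 and -1.75 without WT_D replicate 2.

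Several multigene families, in which reads may be shared among near-identical copies, also held calls. Of 67 tested genes of the Hist clusters, 24 were positive and 0 negative (35.8%, beside 13.7% of all genes), with a median of 0.85, among them Hist3h2ba (2.75 ± 0.24) and Hist1h2bh (1.84 ± 0.17). Their median in 2iL was also above 0, at 0.67. Genes of the 2-cell-like state were negative for 6 of 9 and positive for 0 (66.7%), with a median of -2.67 in FA and -1.77 in 2iL. Zscan4c, the best known of them, lay at 16.2 and 7.10 CPM in WT_D, 107, 57.5 and 29.7 in RASKO_D, 52.8, 58.2 and 23.6 in ERFKO_D and 42.1, 35.3 and 17.1 in RASERFKO_D, so that the last 3 groups overlapped, and its interaction was -2.95 ± 0.87 (edgeR adjusted p 0.0182). No gene of that list was called without WT_D replicate 2, where Zscan4c had -2.52 and an adjusted p of 0.0886, and 2 were called without RASKO_D replicate 1. With the FA libraries fitted alone 3 were called, and 1 without replicate 1 of WT_D and RASKO_D. By limma-voom with sample weights none was called and Zscan4c had an adjusted p of 0.0842.

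Interferon-type genes went both ways. Of 19 tested, 7 were positive and 4 negative (57.9%, beside 13.7% of all genes). On the positive side, Gbp2 and Gbp7, interferon-induced GTPases, had 5.99 ± 0.92 and 4.66 ± 0.69, and Psmb8, an immunoproteasome subunit, 5.61 ± 0.67. Psmb8 read 2.05 and 5.30 CPM in WT_D, 0.0876, 0.162 and 0.252 in RASKO_D, 5.87, 2.48 and 2.71 in ERFKO_D and 10.3, 8.53 and 7.5 in RASERFKO_D. On the negative side, Ifitm3, an interferon-induced membrane protein that is also expressed in germ and stem cells, had -1.96 ± 0.14 (edgeR adjusted p 9.09e-10), with 75.1, 89.6 and 91.4 CPM in RASKO_D and 8.81 to 16.7 elsewhere. Ifitm1 and Ifitm2, close copies of Ifitm3, were negative too. The list's median of 0.53 was 0.19 without WT_D replicate 2. The list of YAP and TEAD pathway factors and targets was negative for 4 of 14 and positive for 1 (35.7%, beside 13.7% of all genes). The called factors were Tead4 and Vgll4 (negative) and Tead3 (positive), and the called targets were both negative, with Cyr61 at -2.31 ± 0.27 and Ctgf at -1.98 ± 0.32.

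Ranked over all genes by size, with the conditions given in the methods, the 10 most negative genes were Aspa, Aqp3, Fat2, Lrrc15, Slc1a1, Pramef17, Itgb3, Calcoco2, Dnajc6 and Jam2, from -6.89 to -4.65. All 10 were highest in RASKO_D. Aqp3, a water and glycerol channel, read 1.26 and 1.04 CPM in WT_D, 184, 63.8 and 48.8 in RASKO_D, 1.39, 1.17 and 1.51 in ERFKO_D and 1.64, 1.18 and 0.746 in RASERFKO_D, an interaction of -6.56 ± 0.99 (edgeR adjusted p 0.000125). Calcoco2, an autophagy receptor, had the highest level of the 10 with 326, 190 and 188 CPM in RASKO_D against 3.15 to 6.84 elsewhere. Aspa, aspartoacylase, had -6.89 ± 0.71, Itgb3, an integrin subunit, -4.84 ± 0.50, and Jam2, a junctional adhesion molecule, -4.65 ± 0.33. Pramef17, of a multicopy family, had an adjusted p of 0.051 by limma-voom with sample weights. For Ly6a (Sca-1), a surface antigen of a multigene family, and Slc26a9, an anion transporter, at least 1 group was at 3 counts or fewer in every library. Their levels are given with no fold. Ly6a read 28.7, 12.0 and 4.64 CPM in RASKO_D and at most 1.39 CPM elsewhere, and Slc26a9 read 7.1, 8.55 and 9.85 in RASKO_D and at most 0.199 elsewhere.

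Of the 10 most positive genes, 9 are given: Has2, St6gal2, Gbp2, Pcdh1, Psmb8, Hoxb1, Gbp7, Gfra1 and Col6a5, from 7.47 to 4.65. All 9 were lowest in RASKO_D. Has2, the enzyme that makes hyaluronan, read 21.4 and 12.6 CPM in WT_D, 0.0438, 0 and 0.18 in RASKO_D, 8.56, 6.12 and 11.2 in ERFKO_D and 7.27, 7.31 and 8.33 in RASERFKO_D. The RAS effect was thus within the spread between libraries without ERF, and the interaction was 7.47 ± 0.53 (edgeR adjusted p 8.87e-10). With no RASKO_D library above 0.18 CPM, the size of that value is uncertain and is not a measured fold. Psmb8 and Hoxb1 were also nearly absent from RASKO_D, so the sizes of their values are uncertain as well. Pcdh1, a protocadherin, had 5.75 ± 0.36 with 42.2 and 38.2, then 1.01, 0.608 and 1.87, then 25.8, 18.7 and 32.4, and 40.1, 45.9 and 36.6 CPM in the same order of groups. Gfra1, a receptor for the growth factor GDNF, had 4.65 ± 0.30 and rose after RAS deletion without ERF, by 1.35. St6gal2, a sialyltransferase, had 6.36 ± 0.48 and Col6a5, a collagen VI chain, 4.65 ± 0.33. Ccdc194, at or under 3 counts in every RASKO_D library and at 8.92 and 7.39 CPM in WT_D, had a lower bound of 4.55.

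Classes with fewer genes held other shapes. Cdhr1, a photoreceptor cadherin, rose after RAS deletion in both lines, from 0.54 and 0.474 CPM in WT_D to 91.6, 68.7 and 65.7 in RASKO_D and from 0.53, 0.912 and 0.399 in ERFKO_D to 3.51, 4.37 and 4.56 in RASERFKO_D, an interaction of -4.44 ± 0.58. Rbm47, an RNA-binding protein, was the reverse of the common pattern. It lay at 16.3 and 12.7 CPM in WT_D, 15.6, 16.7 and 13 in RASKO_D, 12.7, 12.6 and 12.2 in ERFKO_D and 2.99, 1.31 and 3.03 in RASERFKO_D, so that RAS deletion lowered it without ERF only, for an interaction of -2.39 ± 0.30 (edgeR adjusted p 4.45e-06). Fbp2, a fructose bisphosphatase, and Atp12a, a proton pump subunit, followed Rbm47 with -3.72 ± 0.75 and -3.33 ± 0.71. Sema4c, a semaphorin, stood for genes with a called RAS effect in neither line, at 1.85 ± 0.16.

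The interaction was compared between the media. In 2iL the same contrast was called for 77 genes (0.378%), of which 20 were also called in FA with the same sign and 4 with the opposite one. The difference between the media was itself tested, and 1947 genes (9.56%) were called for it. Of the 2794 FA calls, 1445 (51.7%) were also called for that difference. The FA interaction is a term of it and uses the same libraries, so their signs are not independent, and the rest of the FA calls did not pass the test of a difference. Among the 18 naive genes, 15 were called for the difference and 0 for the interaction in 2iL, where their median was 0.06. In the same way 6 of 19 formative genes and 6 of 23 ERK response genes were called for the difference. For the 2-cell-like list 0 of 9 were called for it by edgeR. With 9.56% of all genes called, a list this short cannot be told from that background. Genes of the X chromosome had 20.1% called, beside 13.7% of all genes, with 51 positive, 88 negative and a median of -0.15. By gene type the share called was 15.3% for protein-coding genes (1109 positive, 1257 negative), 12.5% for lincRNA genes (35 and 79), 7.95% for processed pseudogenes (15 and 55) and 6.7% for TEC genes, a class of unverified transcripts (58 and 27), the last of which leaned positive.

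**Figure D5:**
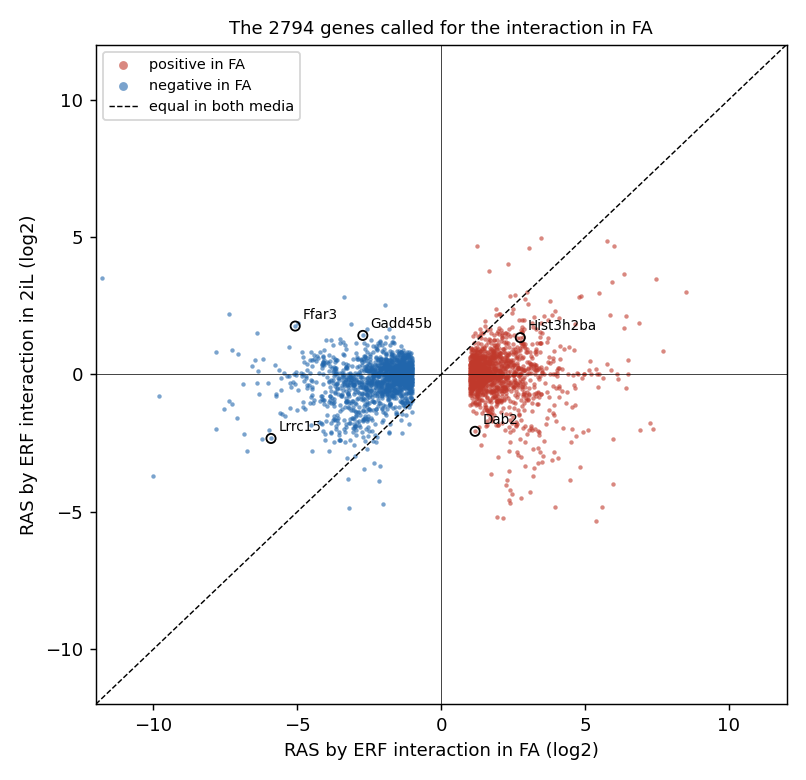
Interaction in FA (horizontal) and in 2iL (vertical), in log2 units, for the 2794 genes called in FA, from separate libraries on the 2 axes. The points spread along the horizontal axis and mostly stay near 0 in 2iL; the 5 circled genes were also called in 2iL and for the difference.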

How the data were processed

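Total RNA was depleted of ribosomal RNA, made into directional libraries and sequenced in pairs, per the labels' protocols. Per the submitters' processing notes, bcl2fastq 2.20.0, fastp 0.20.0 and Salmon (version not given in the sources used here) were used with build mm10. The authors deposited a matrix of gene counts for all 23 libraries, equal to the rounded estimated counts of the deposited Salmon tables, which also give TPM. The counts were used for every test and the authors' TPM values for none.

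One edgeR 4.0.16 model (R 4.3.3) was fitted to all 23 libraries, with TMM scaling, edgeR's default filter on low counts (20372 of 53607 gene rows kept) and robust quasi-likelihood dispersions. The interaction was a contrast of the 4 FA groups. Calls needed at least 2-fold and an edgeR p, adjusted over all tested genes by Benjamini-Hochberg, under 0.05. Every adjusted p in the text is of this kind unless another tool is named. CPM use library sizes after TMM scaling, groups that stood apart by level were compared as log2(CPM + 1), and standard errors were derived from the F statistic. A group was taken to be at the floor when no library of it had more than 3 counts. The code was tested on simulated data.

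Ranked genes had an approved symbol, a mean of at least 5 CPM in the highest FA group, no group at the floor, and the same sign with an adjusted p under 0.05 in all 11 fits that left out 1 FA library. The 10 largest in each direction were named, up to 4 per direction for genes with a group at the floor and for each gene list, up to 3 per pattern class and sign, up to 2 uncalled list members of high CPM, and Erf, Hras and Nras. Tdh, Otx2, Dusp6, Egr1 and Tfcp2l1 were named after their values were seen. The comparison, its gene lists and its markers were chosen with earlier results of these data known. Some genes are left out of the values given. Alternatives were other scalings, filters and tools (DESeq2 1.42.0, limma 3.58.1 with voom and sample weights), effective length offsets, the replicate number as a block, and each library left out in turn.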

Additional observations from a re-analysis of the deposited data

Results flagged for a closer look

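The interaction differed between the media. It was called for 1947 genes in a test of the FA interaction minus the 2iL interaction (edgeR quasi-likelihood, Benjamini-Hochberg adjusted), among them 82 of 112 genes considered for naming in the text. Most of the 112 genes were chosen by their FA interaction, which is a term of that difference, so a high share among them follows from the choice. The 5 genes given here were also called in each medium, and the test of the difference singled them out. All values are log2 interactions, and Dab2 and Ffar3 were named after their values were seen.

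For 3 of the 5 genes the interaction had opposite signs in the media. Gadd45b, a stress-induced protein of DNA repair and demethylation, had -2.72 in FA and 1.42 in 2iL, a difference of -4.14. In FA it stood at 25.4 ± 6.98 CPM (SD, n = 3) in RASKO_D and at 2.34 ± 0.358 (n = 2) in WT_D, whereas in 2iL RASERFKO was highest at 51.5 ± 5.36 (n = 3). Ffar3, a receptor for short-chain fatty acids, had fitted values of -5.07 and 1.76, a difference of -6.83. In FA it was nearly absent outside RASKO_D (2.72 ± 1.53 CPM), with means of 0.089 CPM in WT_D, 0.111 in ERFKO_D and 0.0949 in RASERFKO_D, so the size of its FA value is not a measured fold. Dab2, an endocytic adaptor of visceral endoderm, had 1.18 and -2.07, a difference of 3.25. The remaining pair kept its sign and was larger in FA. Hist3h2ba had 2.75 and 1.34, a difference of 1.42, and Lrrc15, a leucine-rich repeat membrane protein, had -5.91 and -2.33, a difference of -3.58.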

How the results depend on the processing

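The 2794 interaction calls became 5704 with no minimum fold and 953 with the 2-fold minimum tested in the model, and the 1947 calls for the difference between media became 3362 with no minimum fold. The other settings run gave 2310 to 3178 and 1577 to 2344 calls. With each library left out in turn, the counts ran from 2397 (without WT_D replicate 1) to 3128 (without RASKO_D replicate 3), and from 1599 to 2344 for the difference. Of the called genes, 45.9% were positive. Of 106 called genes considered for naming, 100 kept their call under every setting except the minimum fold in the model, under which 15 lost it. Ranked genes, genes with a group at the floor and pattern class genes had been chosen for holding in the fits without 1 FA library. List genes had been chosen as the largest calls. The stability of these genes was therefore in part fixed by the choice. Over all 2794 calls, 1922 (68.8%) kept their sign and an adjusted p under 0.05 in every such fit. Erf and Nras, both uncalled, ran from -0.26 to 0.05 and from -0.31 to 0.01 with each library left out and changed sign: Erf had 0.05 without WT_D replicate 2 or RASERFKO_D replicate 1 and 0 without ERFKO_D replicate 2, and Nras had 0.35 with length offsets, 0 without ERFKO_D replicate 3 and 0.01 without RASERFKO_D replicate 2. Leaving out replicate 1 of WT_D and RASKO_D, or replicates 1 and 3 of RASKO_D, was chosen after seeing the data and gave 2310 and 2461 calls.

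Whether equal replicate numbers pair the libraries is not given. Same-numbered libraries correlated at -0.101 to 0.323 (median 0.043, 15 pairs) and others at -0.317 to 0.317. With the replicate block, 2729 interaction calls were made in the FA libraries alone (2552 without the block) and 2135 for the difference between media. Under it Fgf5 had 3.48 (edgeR adjusted p 0.0617), and 5 glycolysis genes and 3 mesoderm genes were called. The cause of these changes was not tested. WT_D has 2 libraries, so a fit without 1 of them assumes that the other varies like the remaining groups.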

Other observations

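Gene families outside the lists described above also held interaction calls, given here as counts beside the 13.7% of all tested genes. Among 294 solute carriers, 42 were positive and 31 negative (24.8%), with a median of 0.00. Slc1a1, a glutamate transporter, was among the ranked negative genes, at 17.9, 11.3 and 7.37 CPM in RASKO_D and at most 1.51 CPM in the other libraries. Of 353 Zfp zinc finger genes, 19 were positive and 9 negative (7.93%), a share below that of all genes. Of 22 clustered protocadherins, whose shared exons can split reads among copies, 7 were positive and 0 negative, and their median of 0.45 was 0.04 without WT_D replicate 1. Of 18 Sox factors, 5 were positive and 4 negative, and of 35 forkhead factors, 7 and 2. Collagens, laminins and integrins were called in equal numbers, 9 each of 70.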
